A study of Mus musculus with 25 samples.

Results

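Described here are 10 genes of endothelial cells in mouse lung: the receptor genes Kdr, Flt1, Tek, Tie1 and Ednrb, the junction and adhesion genes Cdh5, Cldn5 and Pecam1, and Vwf and Plvap. They were chosen by name, with earlier results of these data known. On the Affymetrix mouse array used, 16 probe sets (groups of short probes for 1 transcript) are annotated to 1 of these symbols alone, out of 34945 probe sets with a single symbol and 45101 in all. These are 10 of the 18193 genes so represented. Lung RNA came from 25 female mice, each hybridised to 1 array, 12 of them FP-KO (lacking FP, through which prostaglandin F2α signals, the product of Ptgfr) and 13 wild type (WT). All were labelled as given bleomycin, a cytotoxic agent used to cause lung fibrosis, into the trachea at 1 mg/kg in saline on Day 0, and lungs were taken from FP-KO mice (4 at baseline, Day 0, 4 on Day 7 and 4 on Day 14) and from WT mice (4 at baseline, 4 on Day 7 and 5 on Day 14). Strain, age and the way the knockout was made are not given in the sources used here, and no group given saline alone is among the samples used. By the titles, arrays are separate mice. The comparisons ask how these genes change over time after bleomycin in FP-KO and in WT lungs, and whether the genotypes differ on each day.

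The endothelium lines the blood vessels, and in the lung most of it forms the capillary net around the air spaces. Kdr encodes VEGFR2, the main signalling receptor for VEGF-A, and Flt1 encodes VEGFR1, which binds the same ligand tightly and in part keeps it from Kdr. Tek encodes TIE2, the receptor for the angiopoietins, and Tie1 encodes its partner, while Ednrb encodes endothelin receptor B, which clears endothelin-1 and is known in mouse lung as a marker of the capillary cells called aerocytes. Cdh5 (VE-cadherin), Cldn5 (claudin-5) and Pecam1 hold endothelial cells together. Vwf encodes von Willebrand factor, a clotting protein made by endothelium and megakaryocytes, and Plvap a protein of the diaphragms of endothelial caveolae and fenestrae.

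The 5 receptor genes were lower on Day 7 than on Day 0 in both genotypes, and their promoters are shown as the regulatory sequence of these genes. A RefSeq promoter was in the table used here for 6 of the 10 genes. That of Cldn5 is counted below but not printed. Plvap, also lower on Day 7 in both genotypes, had none. The 250 bases before the RefSeq start are printed 5′ to 3′ on the strand of the gene, build GRCm38.p6, with Kdr at chr5:75978456-75978705 on the minus strand, Flt1 at chr5:147726012-147726261 on the minus strand, Tek at chr4:94739039-94739288 on the plus strand, Tie1 at chr4:118489850-118490099 on the minus strand and Ednrb at chr14:103843702-103843951 on the minus strand. Capitals mark GGAA or its reverse complement TTCC, the core that ETS factors bind.
Kdr: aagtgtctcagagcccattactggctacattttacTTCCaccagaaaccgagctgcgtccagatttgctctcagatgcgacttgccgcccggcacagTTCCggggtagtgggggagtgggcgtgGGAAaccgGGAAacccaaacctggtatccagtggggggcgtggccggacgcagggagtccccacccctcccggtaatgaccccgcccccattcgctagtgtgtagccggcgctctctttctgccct
Flt1: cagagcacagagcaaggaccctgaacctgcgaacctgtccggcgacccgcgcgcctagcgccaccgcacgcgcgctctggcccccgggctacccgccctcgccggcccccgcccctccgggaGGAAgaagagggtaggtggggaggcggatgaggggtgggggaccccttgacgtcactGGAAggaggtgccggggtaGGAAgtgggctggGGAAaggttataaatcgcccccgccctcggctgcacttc
Tek: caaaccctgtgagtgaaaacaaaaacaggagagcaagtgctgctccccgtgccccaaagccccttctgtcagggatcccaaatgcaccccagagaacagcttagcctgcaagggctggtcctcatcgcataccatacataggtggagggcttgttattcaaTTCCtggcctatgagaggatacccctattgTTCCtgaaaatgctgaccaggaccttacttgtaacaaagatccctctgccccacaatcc
Tie1: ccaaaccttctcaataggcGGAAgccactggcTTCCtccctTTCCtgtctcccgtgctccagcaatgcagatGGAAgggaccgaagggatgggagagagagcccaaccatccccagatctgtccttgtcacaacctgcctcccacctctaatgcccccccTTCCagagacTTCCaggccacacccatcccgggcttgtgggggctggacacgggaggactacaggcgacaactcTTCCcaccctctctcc
Ednrb: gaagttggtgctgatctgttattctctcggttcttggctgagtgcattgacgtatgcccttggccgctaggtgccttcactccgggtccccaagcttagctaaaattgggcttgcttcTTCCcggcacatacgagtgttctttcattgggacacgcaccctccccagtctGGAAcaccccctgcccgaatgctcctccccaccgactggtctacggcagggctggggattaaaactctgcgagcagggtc
The core and a longer ETS form that contains it, CGGAAG, were searched on both strands. So was AGATAA, which factors of the GATA family bind. The core GGAA was found at 4 places in the promoter of Kdr, 4 in that of Flt1, 2 in that of Tek, 7 in that of Tie1 and 2 in that of Ednrb. CGGAAG was found in Tie1 only among these 5, at 1 place, and AGATAA in 0 of them. The promoter of Cldn5 held GGAA at 0 places, CGGAAG at 0 and AGATAA at 0. Over 32851 mouse promoters of the same length, 93.4% hold GGAA, with a median of 3 places, 13.6% hold CGGAAG and 9.99% hold AGATAA.

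Deposited intensities were scaled by the authors to 1 trimmed mean per array, and array medians ran from 112.3 to 151.5. All 16 probe sets lay above the array median in all 25 arrays. Ptgfr read 21.1 to 57.6 in the FP-KO lungs and 122.6 to 383.7 in the WT lungs, without overlap, though the sources used here do not say whether its probes lie in the deleted part. Some arrays stood apart. On the first principal component of all genes tested (42% of the variance), FP-KO Day 14 mouse No. 2 lay at -28.94, among the Day 0 mice of both genotypes (-35.02 to -24.81). Its 18S ribosomal RNA signal was 6339, and FP-KO Day 0 No. 1 had 6648, against 190.8 to 2869.8 in the others. On the second component (16.9%), the Day 14 mice formed separate sets: FP-KO No. 1 and 2 with WT No. 1 to 3 at -30.05 to -27.66, and FP-KO No. 3 and 4 with WT No. 4 and 5 at -1.35 to 2.28. The labels do not say what sets them apart. They are called the first and the second Day 14 set, each holds both genotypes, and many Day 14 results, though not all, are also given within them.

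Each log2 change is followed by ± its standard error from limma. The words rose, fell and passed mean an adjusted p (Benjamini-Hochberg, across 12062 genes) below 0.05. Because the genes were chosen with earlier results known, the shares of all genes beside the counts are no test of the set. On Day 7 against Day 0, 7 of the 10 genes fell in FP-KO lungs, where 10.7% of all genes tested fell, and 7 of 10 fell in WT lungs, where 18% did. Their median log2 change was -0.68 in FP-KO and -0.55 in WT lungs, while that of all genes lay at 0.00 in FP-KO and -0.01 in WT lungs. On Day 14 against Day 0, 0 of 10 passed in FP-KO lungs (2 at an unadjusted p under 0.05), against 3.26% of all genes in either direction, with a median of -0.07. In WT lungs 5 of 10 were still lower on Day 14, where 19.5% of all genes were, with a median of -0.38. Between Day 7 and Day 14, 6 of 10 rose in FP-KO lungs, beside 10.7% of all genes, and 1 (Tie1) in WT lungs, beside 3.56%. The rise in FP-KO lungs moved with single mice of both days: 3 genes (Flt1, Tek and Tie1) passed without Day 14 No. 2 (4% of all genes rose in that fit), and likewise 3 without Day 7 No. 1 (5.75%) or No. 2 (5.86%). With the first Day 14 set alone 8 passed, beside 17.2% of all genes, and with the second 0, beside 0.754%. In bulk tissue, fewer endothelial cells and less RNA per cell cannot be told apart.

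**Figure D1:**
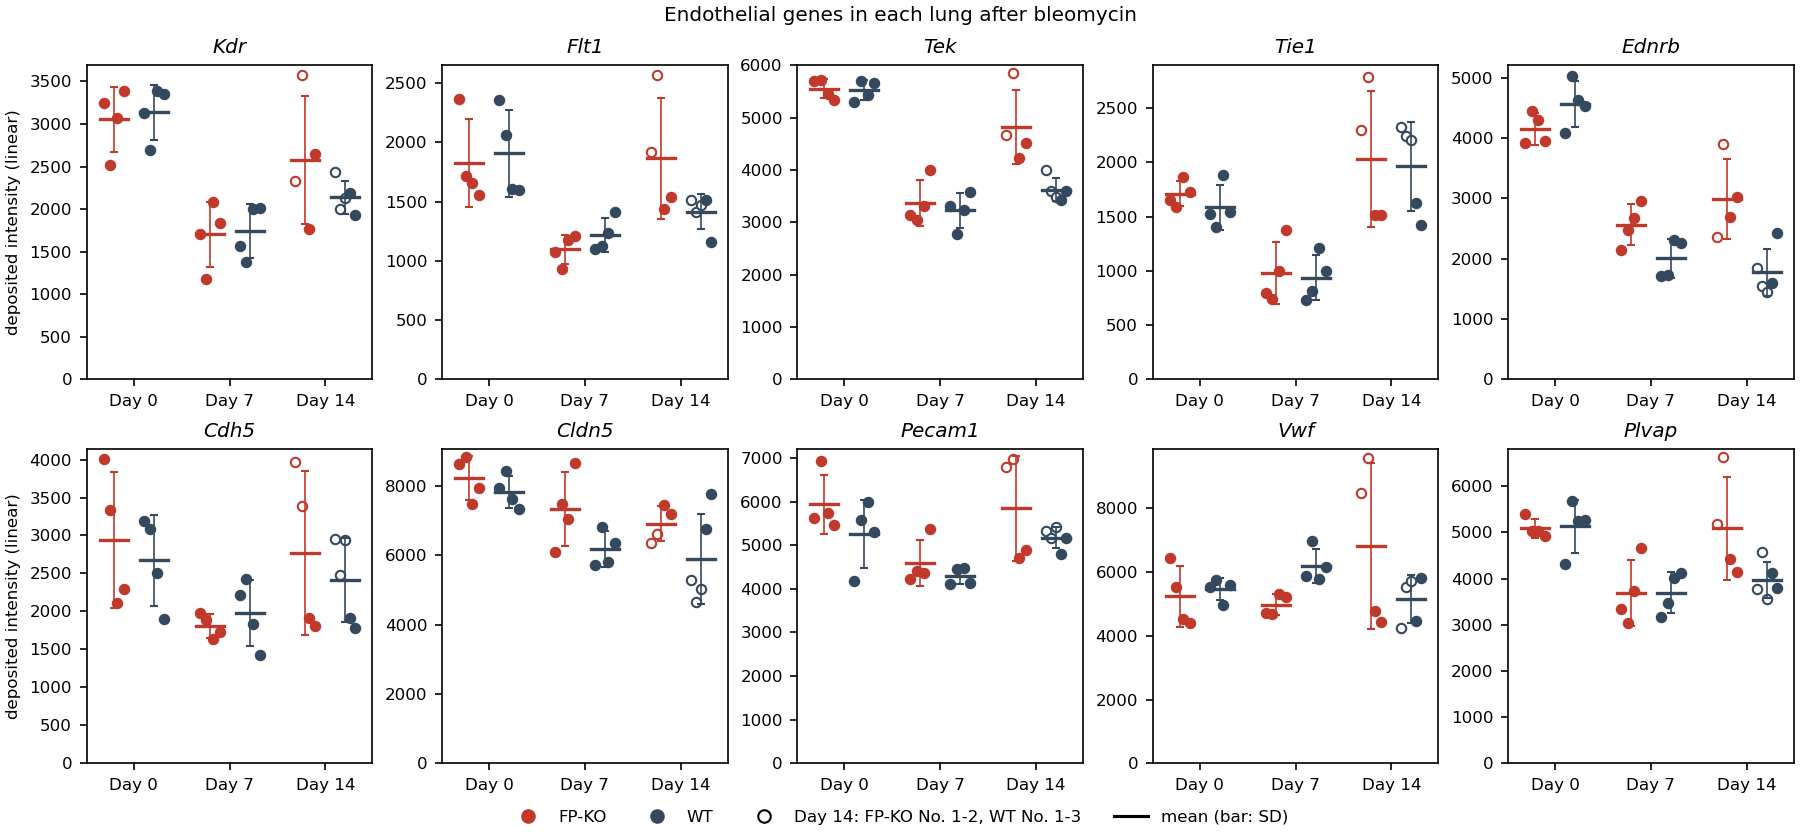
Deposited linear intensity (y axis) of each of the 10 genes in every mouse, FP-KO left of WT on Day 0, 7 and 14, with mean and SD. Open circles are the first Day 14 set, and in the Kdr, Flt1, Tek, Tie1 and Ednrb panels all Day 7 mice lie below the Day 0 mice of their genotype.

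The VEGF receptors fell on Day 7 in both genotypes. Kdr read 1706, 1176, 2088 and 1841 in the 4 FP-KO lungs on Day 7, against 3247, 2522, 3068 and 3387 on Day 0, a fall of 0.86 ± 0.19 log2 (adjusted p = 0.00246 by limma). In WT lungs it read 1569, 1377, 2006 and 2017 on Day 7, against 3124, 2690.1, 3385 and 3347 on Day 0 (-0.85 ± 0.19, adjusted p = 0.00129). The groups did not overlap in either genotype, where Kdr fell by 44.9% in FP-KO and fell by 44.6% in WT lungs. On Day 14, FP-KO mice spread widely, at 2327, 3570.1, 1764 and 2648, and overlapped both earlier days. The change against Day 0 was -0.26 ± 0.19 (adjusted p = 0.474), and that against Day 7 was 0.60 ± 0.19 (adjusted p = 0.0273), or 0.41 (adjusted p = 0.147) without mouse No. 2, which was the highest. That rise also missed the threshold without FP-KO Day 7 No. 1 (0.61, adjusted p = 0.0571) or No. 2 (0.43, adjusted p = 0.123). It was 0.83 (adjusted p = 0.00741) with the first Day 14 set and 0.37 (adjusted p = 0.355) with the second. WT mice on Day 14 read 2431, 2003, 2129.9, 2195 and 1932, all below the WT Day 0 mice (-0.55 ± 0.18, adjusted p = 0.0186). That fall was -0.52 (adjusted p = 0.0382) in the first Day 14 set and -0.61 (adjusted p = 0.0555) in the second, and it missed the threshold without WT Day 0 No. 3 (adjusted p = 0.055) or No. 4 (adjusted p = 0.052).

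Flt1, by its brightest probe set, read 1073, 933, 1173 and 1212 in FP-KO lungs on Day 7, against 2369.6, 1713, 1659.8 and 1558 on Day 0 (-0.69 ± 0.17, adjusted p = 0.0044). In WT lungs it read 1100.2, 1126, 1239.6 and 1414 on Day 7, against 2354, 2062, 1610.4 and 1599.5 on Day 0 (-0.61 ± 0.17, adjusted p = 0.00627). Neither pair of groups overlapped. On Day 14 the FP-KO mice read 1915, 2569, 1436 and 1538, above all FP-KO Day 7 mice (0.72 ± 0.17 against Day 7, adjusted p = 0.00484), and 0.03 ± 0.17 from Day 0 (adjusted p = 0.949). The rise from Day 7 was 1.02 (adjusted p = 0.000302) with the first Day 14 set and 0.42 (adjusted p = 0.19) with the second. The WT mice read 1515, 1415, 1469, 1515 and 1163, just under the lowest WT Day 0 mouse (-0.41 ± 0.16, adjusted p = 0.0404). That WT call was lost without any of WT Day 0 No. 1 or 2 or Day 14 No. 2, 3 or 5, with adjusted p of 0.0553 to 0.157, at -0.31 to -0.43. It also missed the threshold in the first Day 14 set (-0.36, adjusted p = 0.0651), in the second (-0.49, adjusted p = 0.0532) and under a common median (-0.38, adjusted p = 0.0958). With the mean of all its probe sets it passed (-0.36, adjusted p = 0.00566). On Day 14 Flt1 differed between FP-KO and WT by 0.39 ± 0.16 (adjusted p = 0.111), by 0.64 in the first set (adjusted p = 0.0345) and by 0.17 in the second (adjusted p = 0.849).

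Flt1 has 4 probe sets here, and they did not move alike. In the fit over all 21403 probe sets tested, the set used above passed on Day 7 in both genotypes. For the second brightest set the Day 7 change was -0.39 ± 0.17 in FP-KO and -0.43 ± 0.17 in WT lungs (adjusted p = 0.114 and 0.0574), but on Day 14 it changed by -0.23 ± 0.17 in FP-KO lungs (adjusted p = 0.459) and fell by 0.80 ± 0.16 in WT lungs (adjusted p = 0.000552). Its deposited level averaged 904 ± 152 in FP-KO (n = 4) and 676 ± 153 in WT lungs (SD, n = 5) on Day 14, a difference of 0.45 ± 0.16 (adjusted p = 0.0911). The third changed by -0.01 ± 0.18 in FP-KO and -0.10 ± 0.18 in WT lungs on Day 7, and the dimmest by -0.27 ± 0.19 in FP-KO and -0.41 ± 0.19 in WT lungs. Which Flt1 transcripts each set reads was not examined.

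**Figure D2:**
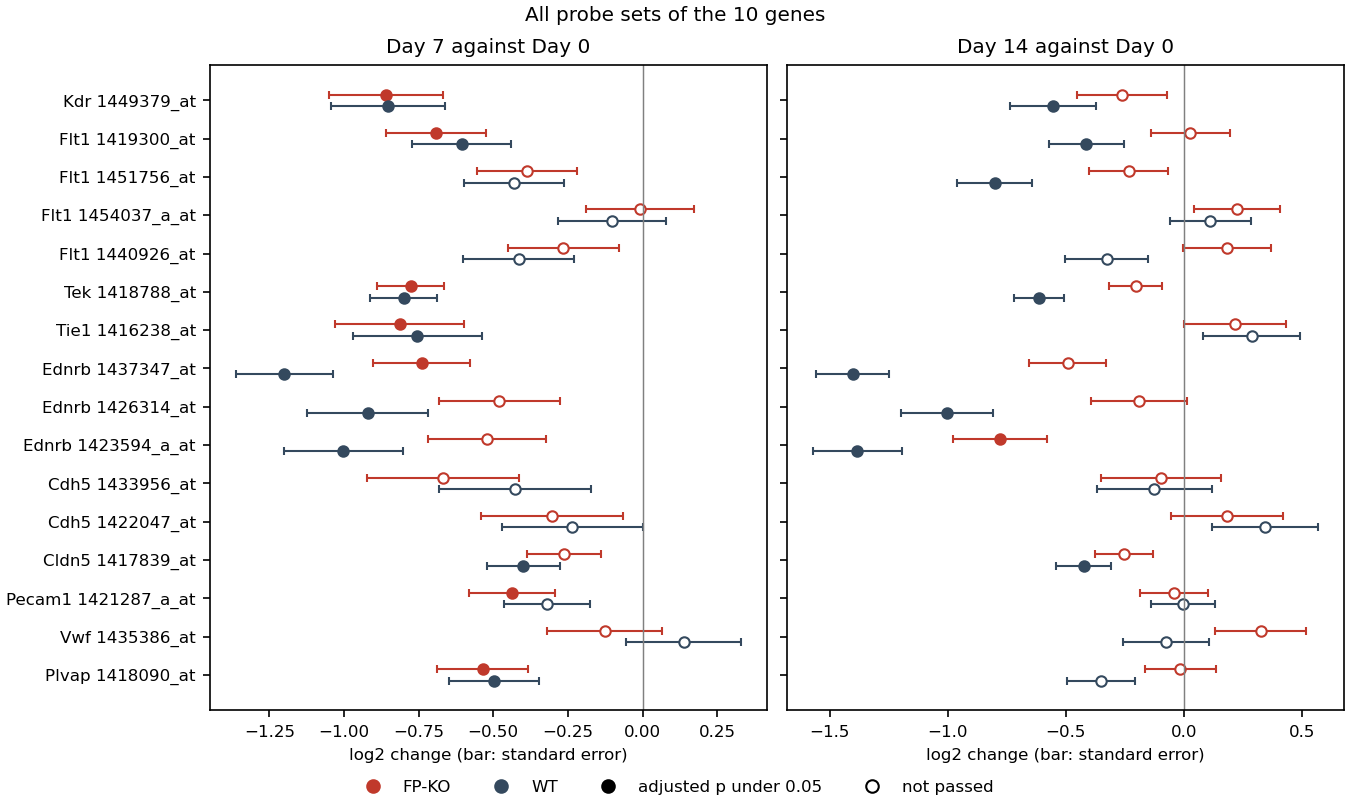
Log2 change with standard error (x axis) of each of the 16 probe sets on Day 7 and Day 14 against Day 0, FP-KO above WT, filled where the adjusted p was under 0.05. All 3 Ednrb sets passed in WT lungs on both days, whereas the 4 Flt1 sets are spread.

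Of the TIE receptors, Tek fell on Day 7 in both genotypes. In FP-KO lungs it read 3134, 3046.5, 3304 and 4005 on Day 7, against 5693, 5719.7, 5449 and 5345 on Day 0 (-0.78 ± 0.11, adjusted p = 4.87e-05). In WT lungs it read 3311, 2786, 3232 and 3583 on Day 7, against 5296, 5696, 5437 and 5661 on Day 0 (-0.80 ± 0.11, adjusted p = 9.39e-06). The groups lay far apart in both genotypes. On Day 14 Tek read 4662, 5847, 4236 and 4519.5 in FP-KO lungs and 3996, 3593, 3492, 3431 and 3600.3 in WT lungs. Every FP-KO mouse was above every WT mouse, by 0.42 ± 0.11 log2 or 34.1% (adjusted p = 0.0133). Tek was the only one of the 10 genes without overlap there, where 5.26% of all genes were higher in FP-KO without overlap. Without FP-KO No. 2 the difference was 0.31 (adjusted p = 0.0875), under a common median it was 0.34 (adjusted p = 0.0552), and it was 0.54 (adjusted p = 0.0204) in the first Day 14 set and 0.33 (adjusted p = 0.413) in the second. Against its own Day 0, Tek changed by -0.20 ± 0.11 in FP-KO lungs on Day 14 (adjusted p = 0.326) and fell by 0.61 ± 0.11 in WT lungs (adjusted p = 9.95e-05), while the test of that difference in change gave 0.41 ± 0.15 (adjusted p = 0.137).

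Tie1 fell on Day 7 and rose again by Day 14, in both genotypes. It read 797, 746, 998 and 1377 in FP-KO lungs on Day 7, against 1659, 1594, 1863 and 1727 on Day 0 (-0.81 ± 0.21, adjusted p = 0.00861). In WT lungs it read 732, 819, 1209 and 999 on Day 7, against 1523, 1402, 1885 and 1543 on Day 0 (-0.75 ± 0.21, adjusted p = 0.0083). No Day 7 mouse reached the Day 0 mice of its genotype. On Day 14 it read 2299.8, 2791, 1518 and 1514 in FP-KO lungs and 2328, 2243, 2206, 1623 and 1424 in WT lungs. Against Day 7 this was a rise of 1.03 ± 0.21 in FP-KO (adjusted p = 0.00267) and 1.04 ± 0.20 in WT lungs (adjusted p = 0.00552), both without overlap, and against Day 0 neither genotype passed (0.22 ± 0.21 in FP-KO and 0.29 ± 0.20 in WT lungs). The Day 14 values split by set: the first set was higher than the second in both genotypes without overlap. Within the first set the rise from Day 7 was 1.42 in FP-KO (adjusted p = 8.14e-05) and 1.28 in WT lungs (adjusted p = 8.68e-05), and within the second it was 0.64 in FP-KO (adjusted p = 0.0969) and 0.69 in WT lungs (adjusted p = 0.211).

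Among the 10 genes, Ednrb fell most in WT lungs, at both times, and it was the one whose change over time differed between the genotypes. It read 2152, 2474, 2675 and 2949 in FP-KO lungs on Day 7, against 3909, 4452, 4299.9 and 3955 on Day 0 (-0.74 ± 0.16, adjusted p = 0.00221). In WT lungs it read 1721, 1727, 2308 and 2267 on Day 7, against 4088, 5021, 4634 and 4521 on Day 0 (-1.20 ± 0.16, adjusted p = 6.76e-06). On Day 14 the FP-KO lungs read 2355, 3894, 2697 and 3015 and the WT lungs 1838, 1548, 1452, 1599 and 2420.3. The WT Day 14 mice were all below the WT Day 0 mice, where Ednrb fell by 62.2% (-1.40 ± 0.15, adjusted p = 5.42e-07), while the FP-KO change was -0.49 ± 0.16 (adjusted p = 0.0945). FP-KO exceeded WT on Day 14 by 0.79 ± 0.15 log2, or 72.8% (adjusted p = 0.00327), although WT No. 5 lay above the lowest FP-KO mouse. The interaction, FP-KO change minus WT change from Day 0 to Day 14, was 0.91 ± 0.22 (adjusted p = 0.0313), and Ednrb was the 1 gene of 10 to pass it, beside 1.28% of all genes tested in that direction.

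The Day 14 values of Ednrb depended on which mice were used. FP-KO No. 2, the array that lay among the Day 0 mice, was also the highest FP-KO mouse of that day. Without it, FP-KO still exceeded WT on Day 14 (0.63, adjusted p = 0.0236), the FP-KO fall from Day 0 passed (-0.65, adjusted p = 0.0176), and the interaction did not (0.76, adjusted p = 0.0732). The interaction missed the threshold on leaving out any of 6 other mice too: FP-KO Day 0 No. 1 or 4, WT Day 0 No. 4, or WT Day 14 No. 2, 3 or 4, so that over these 7 it was 0.76 to 0.90 with adjusted p of 0.0514 to 0.0732. In the first Day 14 set the genotype difference was 0.97 (adjusted p = 0.00686) and the interaction 1.09 (adjusted p = 0.019). In the second set, with 2 mice a genotype on that day, they were 0.55 (adjusted p = 0.323) and 0.67 (adjusted p = 0.328). The WT fall on Day 14 passed in both sets, at -1.52 and -1.23 (adjusted p = 1.42e-06 and 8.13e-05). Both other Ednrb probe sets fell in WT lungs on both days, with log2 changes for the brighter of -0.92 on Day 7 and -1.0 on Day 14 and for the dimmer of -1.0 on Day 7 and -1.38 on Day 14. FP-KO was above WT on Day 14 by 0.72 ± 0.19 for the brighter (adjusted p = 0.0265) and by 0.53 ± 0.19 for the dimmer (adjusted p = 0.0907), and the interaction passed for neither (0.81 and 0.60, adjusted p = 0.137 and 0.297).

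**Figure D3:**
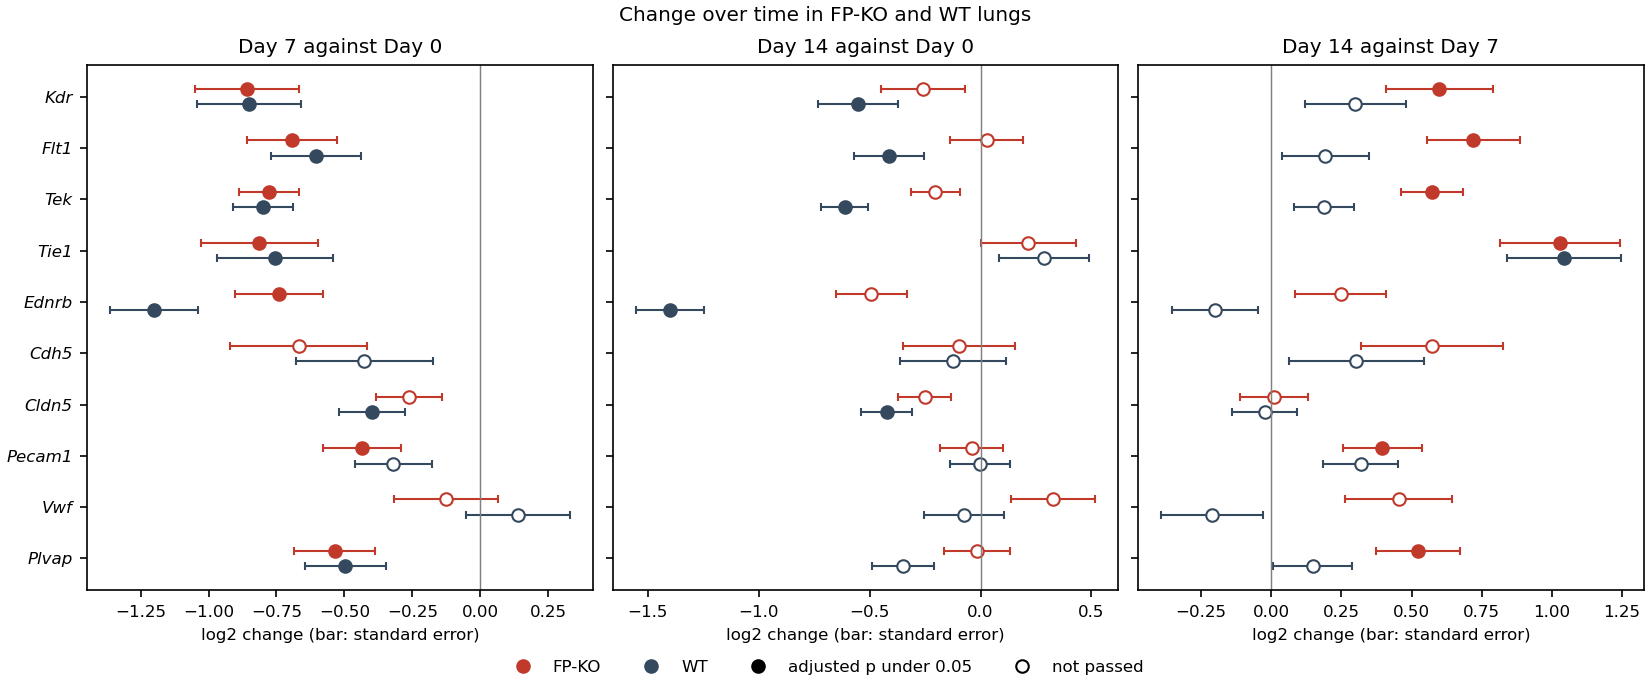
Log2 change with standard error (x axis) of the 10 genes between days, FP-KO above WT in each pair and filled where the adjusted p was under 0.05. On Day 7 both genotypes sit left of 0 for 9 of the 10 genes, and on Day 14 Ednrb shows -0.49 in FP-KO and -1.40 in WT lungs.

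Of the junction and adhesion genes, Pecam1 fell on Day 7 in FP-KO lungs, Cldn5 fell in WT lungs on Day 7 and Day 14, and Cdh5 passed in neither genotype. Cdh5 read 1980.2, 1889, 1635 and 1734 in FP-KO lungs on Day 7, against 4009, 3334.5, 2113 and 2298 on Day 0 (-0.67 ± 0.25, adjusted p = 0.0585, without overlap), and its WT change was -0.43 ± 0.25 (adjusted p = 0.198). The FP-KO change passed on leaving out any of 3 mice (FP-KO Day 0 No. 3, Day 14 No. 1 or Day 14 No. 4, adjusted p of 0.0366 to 0.047). With the mouse number as a replicate block, the Day 7 change passed in FP-KO (adjusted p = 0.00547) and WT lungs (adjusted p = 0.0413). However, the titles name separate mice on each day. Mice of 1 number deviated together only weakly between Day 0 and Day 7 (r of 0.069 to 0.125 in FP-KO and 0.051 to 0.159 in WT lungs). The values at baseline were uneven in both genotypes, with mice No. 1 and 2 above No. 3 and 4: 3191, 3088, 2509.8 and 1900 in WT lungs. On Day 14 its mice followed the sets, at 3972 and 3385 against 1919.9 and 1804 in FP-KO lungs and 2950.5, 2479 and 2938 against 1908 and 1784 in WT lungs. Its dimmer probe set gave -0.30 ± 0.24 in FP-KO and -0.23 ± 0.24 in WT lungs on Day 7.

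Cldn5 read 6110.4, 7496.5, 7047 and 8671 in FP-KO lungs on Day 7, against 8628, 8853, 7493 and 7958 on Day 0, with overlap (-0.26 ± 0.12, adjusted p = 0.118). In WT lungs it read 5737.5, 6829, 5819.7 and 6356 on Day 7, against 7936.5, 8425, 7617 and 7348 on Day 0 (-0.40 ± 0.12, adjusted p = 0.0128), without overlap. Under a common median this was -0.33 (adjusted p = 0.109). On Day 14 WT mice read 5277, 4669, 5026, 6754 and 7762 (-0.42 ± 0.12 against Day 0, adjusted p = 0.00581). Here the first set was the lower one: it gave -0.62 (adjusted p = 8.5e-05), and the second, where 1 of 2 mice lay above the lowest Day 0 mouse, gave -0.12 (adjusted p = 0.491). The FP-KO mice on Day 14 read 6362, 6626, 7464 and 7192, and differed from WT by 0.24 ± 0.12 (adjusted p = 0.185). Pecam1 fell in FP-KO lungs on Day 7 by 0.44 ± 0.14 (adjusted p = 0.029), with 4233, 4418, 4370.4 and 5375 against 5632, 6939.7, 5729.5 and 5463 on Day 0. In WT lungs its change was -0.32 ± 0.14 (adjusted p = 0.0836), with 4119, 4455, 4482 and 4142 against 4172, 5588, 5995 and 5294, and the interaction was -0.12 ± 0.20 (adjusted p = 0.96). The days overlapped in WT lungs and did not in FP-KO lungs. Leaving out FP-KO Day 0 No. 2 or Day 7 No. 1, 2 or 3 lost the FP-KO call (adjusted p of 0.0593 to 0.106), as did scaling to a common median alone (-0.27, adjusted p = 0.165). The Pecam1 rise from Day 7 to Day 14 in FP-KO lungs (0.40 ± 0.14, adjusted p = 0.0475) missed the threshold on leaving out any of 19 of the 25 mice, at 0.29 to 0.40 with adjusted p of 0.0503 to 0.2, highest without FP-KO Day 14 No. 2. The WT change on Day 7 passed without WT Day 0 No. 1 (-0.43, adjusted p = 0.024).

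Vwf passed in none of the 12 comparisons over all mice, and on Day 7 its WT mice were above its FP-KO mice. It read 4701, 4671.5, 5304 and 5229 in FP-KO lungs on Day 7 and 5866, 6956, 5786 and 6145 in WT lungs, without overlap (-0.33 ± 0.19, adjusted p = 0.743). Of all genes, 2.73% were lower in FP-KO than in WT lungs without overlap on that day. On Day 14 the FP-KO mice of the first set read 8476 and 9585 and those of the second 4774 and 4442, against 4236, 5537 and 5710.2 in the first and 4457.5 and 5823 in the second for WT lungs. Over all mice FP-KO differed from WT by 0.34 ± 0.18 (adjusted p = 0.25), within the first set by 0.84 (adjusted p = 0.00293) and within the second by -0.15 (adjusted p = 0.807). Plvap fell on Day 7 by 31% in FP-KO lungs, at 3346, 3032, 3721 and 4661 against 5395, 5021, 5035 and 4915 on Day 0 (-0.54 ± 0.15, adjusted p = 0.0123), and fell by 29.2% in WT lungs, at 3169.8, 3480.3, 4006.5 and 4111 against 4320.2, 5682, 5249.6 and 5263 (-0.50 ± 0.15, adjusted p = 0.0117). Neither pair overlapped, and the FP-KO fall missed the threshold without FP-KO Day 7 No. 2 (-0.43, adjusted p = 0.061) and under a common median (-0.38, adjusted p = 0.0559). On Day 14 the FP-KO change was -0.01 ± 0.15 (adjusted p = 0.973) and the WT change -0.35 ± 0.14 (adjusted p = 0.0536), which passed on leaving out any of 6 mice (adjusted p of 0.0294 to 0.0469). The Plvap rise from Day 7 to Day 14 in FP-KO lungs, 0.52 ± 0.15 (adjusted p = 0.0168), was 0.38 without Day 14 No. 2 (adjusted p = 0.0932), and missed the threshold without Day 7 No. 1 (adjusted p = 0.0525) or No. 2 (adjusted p = 0.0765) and under a common median (adjusted p = 0.0598).

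Between genotypes, 0 of the 10 genes passed on Day 0 and 0 on Day 7, beside 0.0166% of all genes on each day, with 0 and 1 (Vwf) of 10 at an unadjusted p under 0.05. On Day 14, 2 of 10 (Tek and Ednrb) were higher in FP-KO lungs, beside 4.89% of all genes, all 10 log2 differences were above 0, and their median was 0.30. Without FP-KO No. 2 the count was 1 (Ednrb), beside 1.59% of all genes, and the median 0.17. In the first Day 14 set 6 of 10 were higher in FP-KO (Flt1, Tek, Ednrb, Cldn5, Vwf and Plvap) with a median of 0.49, beside 4.34% of all genes. In the second 0 of 10 were, beside 0.00829% of all genes, with a median of 0.06. The interactions from Day 0 to Day 7 and from Day 7 to Day 14 passed for 0 of 10, beside 0% and 0.00829% of all genes (0 and 3 of 10 at an unadjusted p under 0.05). On Day 7 the differences in change between genotypes ran from -0.27 to 0.46 over the 10 genes. Groups without overlap were counted too, on the normalised scale. Day 7 lay wholly below Day 0 for 8 of 10 genes in FP-KO lungs (12.7% of all genes) and 7 of 10 in WT lungs (17.8%). Day 14 lay wholly below Day 0 for 5 of 10 in WT lungs (13.7%), and wholly above Day 7 for 3 of 10 in FP-KO lungs (9.69%).

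By mean normalised log2 level over the 6 groups, both Day 0 groups stood above all Day 7 groups for 9 of the 10 genes, Vwf being the other. The order of groups for Kdr was WT Day 0 (11.61), FP-KO Day 0 (11.58), FP-KO Day 14 (11.32), WT Day 14 (11.06), WT Day 7 (10.76) and FP-KO Day 7 (10.72), and each overlapped the next. For Flt1 the 1 gap between neighbours lay between FP-KO Day 0 (10.82) and WT Day 14 (10.45), and for Tek between FP-KO Day 14 (12.25) and WT Day 14 (11.83). Tie1 was highest on Day 14, in FP-KO (10.96) before WT lungs (10.91), and every neighbour overlapped. Ednrb ran from WT Day 0 (12.16) over FP-KO Day 0 (12.04), FP-KO Day 14 (11.55), FP-KO Day 7 (11.3) and WT Day 7 (10.96) to WT Day 14 (10.76), each overlapping the next. For Cldn5 the gap lay between WT Day 0 (12.95) and FP-KO Day 14 (12.77), and for Cdh5, Pecam1, Vwf and Plvap every neighbour overlapped.

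The genes with the most similar course over the 6 group means were named by the root mean square distance between centred log2 profiles, out of all genes tested. Per3, a gene of the circadian clock, was the nearest for Tek (distance 0.025 log2) and for Kdr (0.051), followed by Unc45b for Tek (0.031) and Il17rd for Kdr (0.054). For Flt1 they were Tox2 (0.046) and Rora (0.05), for Tie1 Myh14 (0.09) and Arhgef1 (0.094), and for Ednrb Aass (0.08) and Krt79 (0.085). Cdh5 was nearest to Son (0.023) and Cyhr1 (0.033), Cldn5 to Pard3b (0.024) and Cdc42ep2 (0.027), and Pecam1 to Kcnq1ot1 (0.033) and Tnks2 (0.039). Plvap was nearest to Slc25a42 (0.03) and Arhgef10 (0.033), and Vwf to Abcb6 (0.063) and Ago3 (0.07). Of these, Per3 changed by -0.79 in FP-KO (adjusted p = 0.0204) and -0.84 in WT lungs (adjusted p = 0.00861) on Day 7, and Aass by -0.30 in FP-KO (adjusted p = 0.469) and -1.26 in WT lungs (adjusted p = 5.86e-05) on Day 14.

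The other genes of the same pathways were taken from lists of names, some of which share genes. Beside the Day 7 counts of all lists below, 10.7% of all genes fell and 12.6% rose in FP-KO lungs. In WT lungs 18% fell and 17.1% rose. Of 4 angiopoietin and TIE partners tested, 3 fell on Day 7 in each genotype: Angpt1 and Angpt2, ligands of Tek, and Ptprb (VE-PTP), the phosphatase that acts on it. Ptprb changed by -0.59 in FP-KO and -0.70 in WT lungs on Day 7 (adjusted p = 6.11e-05 and 2.3e-06), and by -0.09 in FP-KO (adjusted p = 0.615) and -0.61 in WT lungs (adjusted p = 4.87e-06) on Day 14. Over all mice, Ptprb was higher in FP-KO than in WT lungs on Day 14 (0.52, adjusted p = 0.000776), and its interaction was 0.53 ± 0.12 (adjusted p = 0.022). For Ptprb, no values with a mouse left out or within a Day 14 set are given here, so how far these calls depend on single mice is not known. Of all genes, 4.89% were higher in FP-KO lungs on Day 14 over all mice, and 0.00829% in the second Day 14 set. Angpt2 was -0.93 in FP-KO and -0.86 in WT lungs on Day 7 (adjusted p = 0.00164 and 0.00151). Of 8 VEGF ligands and other receptors, 1 rose and 1 fell in FP-KO lungs on Day 7 and 1 rose and 3 fell in WT lungs. Pgf, a ligand of Flt1, rose by 1.13 in FP-KO (adjusted p = 0.00127) and 0.83 in WT lungs (adjusted p = 0.00697), Vegfa changed by -0.42 in FP-KO (adjusted p = 0.0566) and -0.64 in WT lungs (adjusted p = 0.00289), and the co-receptor Nrp1 by -0.23 in FP-KO (adjusted p = 0.121) and -0.44 in WT lungs (adjusted p = 0.00326). Of 4 endothelin genes tested, Ece1, which activates endothelin, fell on Day 7 in FP-KO (-0.49, adjusted p = 0.0241) and in WT lungs (-0.65, adjusted p = 0.00236), and Ece2 rose in both, by 0.64 in FP-KO (adjusted p = 0.023) and 0.82 in WT lungs (adjusted p = 0.00258). The endothelin gene Edn3 also passed on Day 7 in WT lungs (adjusted p = 0.00624).

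Wider endothelial lists also held more falls than rises on Day 7. Of 23 other pan-endothelial genes, 13 fell and 1 rose in FP-KO lungs (median log2 change -0.34), and 15 fell and 3 rose in WT lungs (-0.38). Ramp2, a co-receptor for adrenomedullin, changed by -0.75 in FP-KO and -0.92 in WT lungs (adjusted p = 0.000217 and 7.62e-06), whereas Cd34 changed by 0.25 in FP-KO (adjusted p = 0.0757) and rose by 0.52 in WT lungs (adjusted p = 0.000341). Of 14 genes of Notch and ALK1 signalling, 10 fell in FP-KO and 9 in WT lungs and 0 rose, with Smad6, an inhibitor of BMP signalling, at -0.80 in FP-KO and -1.19 in WT lungs and the Notch target Hey1 at -0.82 in FP-KO and -1.01 in WT lungs. Of 18 endothelial transcription factors, 8 fell and 1 rose in FP-KO lungs and 11 fell in WT lungs, Sox18 among them (-0.65 in FP-KO and -0.75 in WT lungs, adjusted p = 0.00473 and 0.000714). Of 13 junction partners, 5 fell in FP-KO and 6 in WT lungs, and Icam2, an adhesion molecule of resting endothelium, was at -0.44 in FP-KO and -0.79 in WT lungs (adjusted p = 0.0241 and 0.000119). On Day 14 against Day 0 these 4 lists had 0, 0, 0 and 1 gene lower in FP-KO lungs (Icam2, -0.51, adjusted p = 0.0401), and 9, 6, 4 and 3 lower in WT lungs. Of all genes, 1.41% were lower in FP-KO and 19.5% in WT lungs. The WT counts of transcription factors and junction partners thus lie near the share of all genes, and few falls were to be found in FP-KO lungs in any list. On that day 7 of the 23 pan-endothelial genes were higher and 1 lower in FP-KO than in WT lungs, beside 4.89% and 5.64% of all genes. These counts were 1 and 1 without FP-KO No. 2, 9 and 1 in the first Day 14 set and 0 and 0 in the second.

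**Figure D4:**
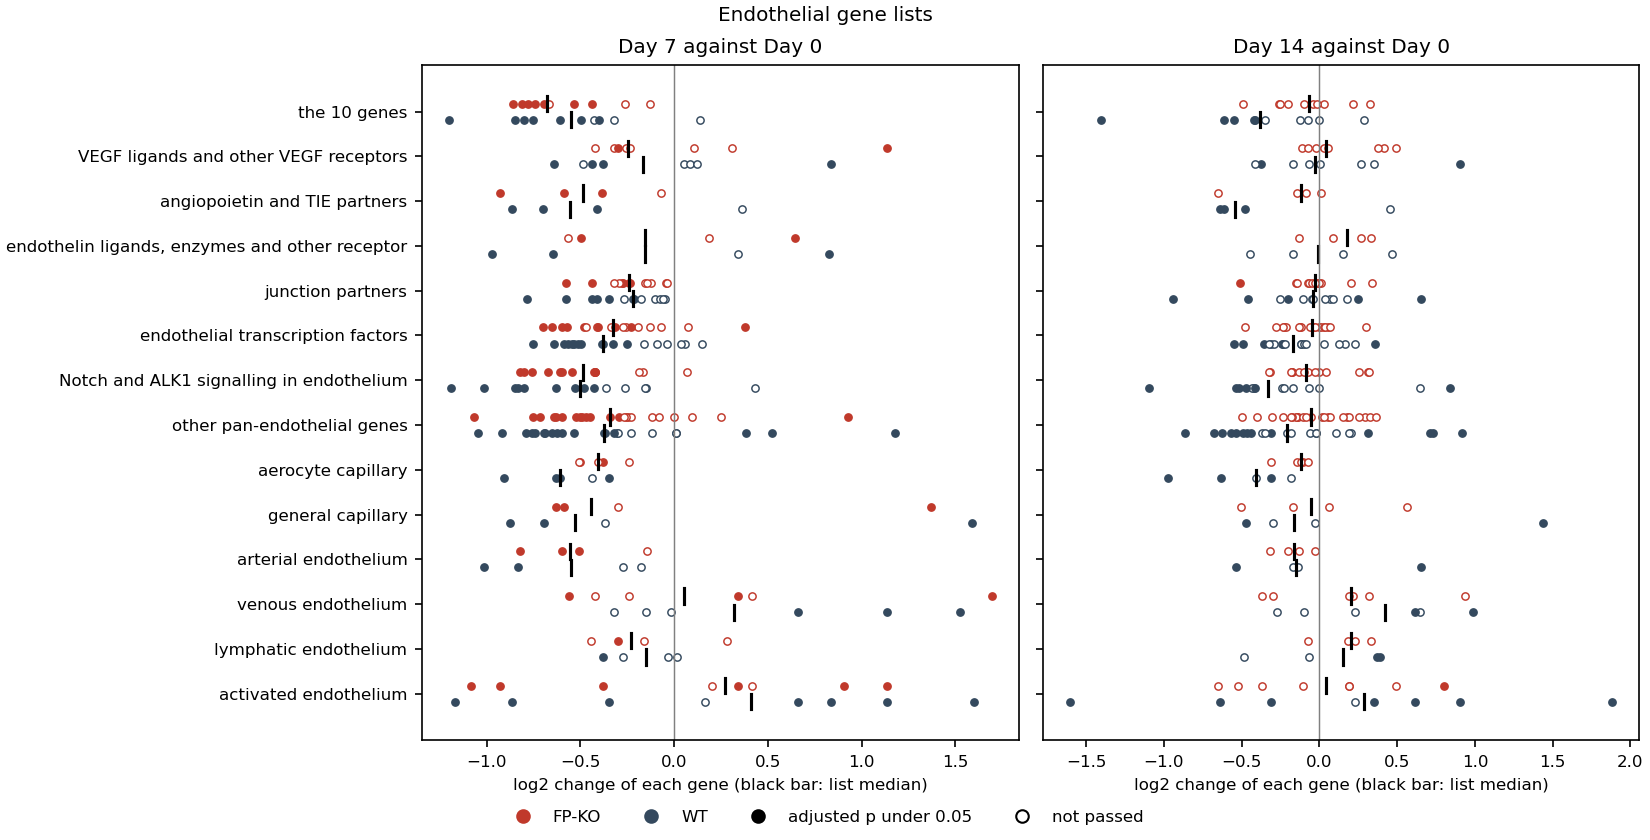
Log2 change (x axis) of each tested gene of the endothelial lists on Day 7 and Day 14 against Day 0, FP-KO above WT, filled where the adjusted p was under 0.05, with a black bar at the list median. On Day 7 the medians of most lists lie left of 0 in both genotypes, and the venous and activated lists lie at 0.05 and 0.27 in FP-KO and 0.32 and 0.41 in WT lungs.

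By vessel type, the aerocyte list, to which Ednrb is close in its known expression, had 5 tested genes, of which 2 fell in FP-KO and 4 in WT lungs on Day 7, and 0 in FP-KO and 3 in WT lungs on Day 14. Fibin changed by -0.50 in FP-KO and -0.91 in WT lungs on Day 7 (adjusted p = 0.0304 and 0.000181) and by -0.12 in FP-KO (adjusted p = 0.734) and -0.98 in WT lungs on Day 14 (adjusted p = 4.37e-05). On Day 14 Fibin, Car4, a carbonic anhydrase of the capillary surface, and Apln were higher in FP-KO than in WT lungs (0.75, 0.47 and 0.34), while without FP-KO No. 2 the list had 1 such gene. Of all genes, 4.89% were higher in FP-KO lungs on that day and 1.59% without FP-KO No. 2. In the second Day 14 set alone 0.00829% of all genes were. Among 4 general capillary genes, Aplnr and Sema3c fell on Day 7 in both genotypes and Cxcl12, a chemokine also made by other lung cells, rose (1.37 in FP-KO and 1.59 in WT lungs). Among 4 arterial genes 3 fell in FP-KO and 2 in WT lungs, with Efnb2, an arterial ephrin, at -0.60 in FP-KO and -0.83 in WT lungs. In the venous list, Ackr1, a chemokine-binding receptor of venules, rose by 1.69 in FP-KO and 1.52 in WT lungs, and Selp changed by 0.42 in FP-KO (adjusted p = 0.123) and rose by 1.13 in WT lungs (adjusted p = 0.000103). Of 8 genes of activated endothelium, 3 rose and 3 fell in FP-KO lungs and 4 rose and 3 fell in WT lungs, with Lrg1 up by 0.91 in FP-KO and 1.6 in WT lungs and the tip-cell gene Esm1 at -1.08 in FP-KO and -1.17 in WT lungs. Of 4 lymphatic genes 1 fell in each genotype, Flt4 (VEGFR3), by 0.30 in FP-KO and 0.38 in WT lungs.

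Markers of other cells moved with these falls, and their part in the results was not tested. Summed over 10 genes, leukocyte markers read 67689 to 73646 in FP-KO and 66239 to 79249 in WT lungs on Day 7, against 58772 to 67770 in FP-KO and 53526 to 61768 in WT lungs on Day 0, and 4 of 10 rose in FP-KO and 7 in WT lungs. Ptprc was not among them, at -0.19 in FP-KO (adjusted p = 0.352) and -0.04 in WT lungs (adjusted p = 0.873). Fibroblast markers summed to 42506 to 51560 in FP-KO and 50525 to 61784 in WT lungs on Day 7, against 27356 to 37787 in FP-KO and 25698 to 31915 in WT lungs on Day 0, and 4 of 6 rose in each genotype. Cell cycle genes rose, 4 of 4 tested, in both genotypes. Cardiac muscle genes fell in 0 of 12 in FP-KO and 11 of 12 in WT lungs on Day 7 and in 0 in FP-KO and 12 in WT lungs on Day 14, with sums on Day 14 of 16743 to 28335 in FP-KO and 11500 to 14166 in WT lungs. The starting levels were unequal: Day 0 medians were 3183 in FP-KO and 4731 in WT lungs for Myh6. For Tnnt2 they were 2100 in FP-KO and 2767 in WT lungs. On Day 14, when Tek and Ednrb were higher in FP-KO lungs, 9 of the 12 cardiac genes were higher too, while 4 of 10 leukocyte, 4 of 6 fibroblast and 4 of 4 cell cycle genes were lower. Of all genes, 4.89% were higher and 5.64% lower in FP-KO lungs on that day. The cardiac myosin gene Myh6 differed by 0.70 ± 0.21 (adjusted p = 0.0338), the macrophage gene Cd68 by -0.88 (adjusted p = 0.02) and the collagen gene Col1a1 by -1.21 (adjusted p = 0.00325). The leukocyte marker Ptprc differed by only -0.04 on that day (adjusted p = 0.883). Without FP-KO No. 2 the counts were 5 cardiac genes higher, where 1.59% of all genes were, and 0 leukocyte, 2 fibroblast and 3 cell cycle genes lower. In the second Day 14 set 0 genes of these 4 lists passed, and 0.00829% of all genes were higher. Of 8 megakaryocyte and platelet genes, which share Vwf with the endothelium, 2 fell in FP-KO and 5 in WT lungs on Day 7, and its defining Itga2b and Gp9 were above the floor in every mouse. Of 10 pericyte markers 1 rose and 1 fell in FP-KO and 2 rose and 2 fell in WT lungs on Day 7, and of 10 epithelial markers 2 rose and 2 fell in each genotype. Of 3 adipocyte genes tested, 0 fell in FP-KO and 2 in WT lungs on Day 7, and 0 in FP-KO and 3 in WT lungs on Day 14. Adipoq, which encodes adiponectin, had medians on Day 0 of 1284 in FP-KO and 2747 in WT lungs. That log2 difference of -0.90 ± 0.36 did not pass, but it enters the interaction. On Day 14 Adipoq read 571.5 to 1361 in FP-KO and 251.1 to 573 in WT lungs (1.07 ± 0.34, adjusted p = 0.0458), with an interaction of 1.97 ± 0.50 (adjusted p = 0.0347). Without FP-KO No. 2, 0 of the 3 passed in either comparison. None of the defining markers of these lists was at the floor of 24.3 in any mouse.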

How the data were processed

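Affymetrix mouse 430 2.0 arrays measured lung RNA of 25 mice, 1 array each. The authors deposited linear signal intensity values per probe set, already scaled so that each array has a trimmed mean of 500 (2% trimmed at each end, as found from the values). Which software made them is not stated in the labels read here. Of 45101 probe sets, 64 were controls, 932 had several symbols and 9160 none, and 34741 of the 34945 others matched a RefSeq gene by gene number. Because array medians spanned 0.432 log2, above a limit of 0.3, the deposited intensity values were floored at 24.3 (the 20th percentile), put on the log2 scale and quantile-normalised. A gene was read by its brightest probe set and tested if 4 or more arrays had it over their median (12062 of 18193 genes). limma 3.58.1 in R 4.3.3 fitted 6 group means with 12 contrasts and empirical Bayes, with Benjamini-Hochberg adjustment over all genes tested and a threshold of 0.05. Python 3.11.15 and matplotlib 3.10.9 drew the figures. The fit was tested on simulated data. The number of arrays limits the precision.

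The 10 genes and all lists were chosen with earlier results of these data known. Named were the 10 genes in every comparison with all their probe sets, up to 3 genes of each endothelial list with the smallest adjusted p in any contrast, the first 2 genes of other lists, and the 2 genes nearest in profile to each of the 10. Mouse numbers of FP-KO and WT deviated together on Day 0 (r of 0.119 to 0.345) and Day 7 (0.141 to 0.221). On Day 14 r was 0.237, 0.195 and 0.437 for No. 1, 2 and 4. It was -0.308 for No. 3, whose FP-KO and WT mice lay in different Day 14 sets. Between days within a genotype r was -0.235 to 0.159. The p-values of the main fit rest on 1 estimate per gene of the spread between mice, shared by the 6 groups and without covariates. That spread takes in the Day 14 sets and the shared deviations of same-numbered mice.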

Additional observations from a re-analysis of the deposited data

Results flagged for a closer look

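Of 60 groups of 4 or 5 mice looked at, 2 had a mouse far from the others, where chance gives about 1 in 20. WT Day 14 No. 5 was the lowest for Flt1, with a gap of 0.737 of the group's range. FP-KO Day 0 No. 2 was the highest for Tek, with a gap of 0.902 of the range, though the normalised SD of that group was only 0.042 log2. In the deposited intensities given above that mouse lies close to the next, so the gap does not hold on the deposited scale. The change of Ednrb from Day 0 to Day 14 differed between FP-KO and WT lungs by 0.91 log2, by the interaction term, and this call was lost on leaving out any of 7 of the 25 mice (adjusted p of 0.0514 to 0.0732 by limma), FP-KO Day 14 No. 2 giving the lowest value, 0.76.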

How the results depend on the processing

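Across alternatives, 1396 of 1460 single-gene values kept their side of the threshold, 38 lost and 26 gained a call, and 0 calls turned sign. Of the values without a call, 67 changed sign. With 1 mouse left out, 2938 of 3000 kept their side, 45 lost, 17 gained and 0 calls turned, while 101 values without a call changed sign. Another scaling moved the median of all genes by at most 0.09 log2. For FP-KO against WT on Day 14 the count of 2 genes became 1 under a common median, 6 in the first Day 14 set, 0 in the second and 1 without the 2 arrays of highest 18S signal, a choice made after seeing the data, as were the list counts by set. The Day 0 to Day 14 interaction (1 gene) gave 0 with no filter, with the mean of probe sets, in the second set and without the 18S arrays, and 2 in the first set. FP-KO Day 14 against Day 0 (0 genes) gave 1 with array weights, in the first set and without the 18S arrays. FP-KO Day 14 against Day 7 (6) gave 3 with array weights and without the 18S arrays and 0 in the second set. WT Day 14 against Day 7 (1) gave 2 with array weights and in the first set and 0 in the second. WT Day 14 against Day 0 (5) gave 2 in the second set, and the Day 7 to Day 14 interaction (0) gave 1 in the first. Causes were not tested, though each set holds fewer mice. With each mouse left out in turn, Day 7 against Day 0 gave 5 to 8 genes in FP-KO and 7 to 8 in WT lungs, Day 14 against Day 0 gave 0 to 1 in FP-KO and 4 to 6 in WT lungs, and Day 14 against Day 7 gave 3 to 8 in FP-KO and 1 to 1 in WT lungs. For FP-KO against WT the range was 0 to 0 at Day 0 and at Day 7, and 1 to 3 at Day 14, and the interactions 0 to 0, 0 to 1 and 0 to 0. With the mouse number as a replicate block, Day 7 against Day 0 gave 8 genes in FP-KO and 8 in WT lungs, Day 14 against Day 0 gave 1 in FP-KO and 4 in WT lungs, and Day 14 against Day 7 in FP-KO lungs gave 6, with Cdh5 gained (adjusted p = 0.016) and Pecam1 lost (adjusted p = 0.0599). FP-KO against WT stayed at 0 on Day 0 and 0 on Day 7, and on Day 14 Cldn5 was gained (0.34, adjusted p = 0.0337). Under that block Ednrb passed in FP-KO lungs on Day 14 against Day 0 (adjusted p = 0.0492), Flt1 in WT lungs did not (adjusted p = 0.0958), and Cdh5 passed on Day 7 in FP-KO (adjusted p = 0.00547) and in WT lungs (adjusted p = 0.0413).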
